A study of Mus musculus with 6 samples.

Results

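The type I interferon response was examined in lipid droplet-low and lipid droplet-high microglia of progranulin knockout mice through 32 genes. They comprise both chains of the interferon receptor, signalling factors, sensors of viral nucleic acid and genes that interferon induces. The genes were chosen by symbol, and all 32 were found among the 16179 genes of the table. All 32 also passed the filter of a mean of at least 10 normalised reads that left 12821 genes for testing. All cells were hippocampal microglia of male mice aged 10 months, strain B6.129S4(FVB)-Grntm1.1Far/Mmja, and both groups lack progranulin (gene Grn). Hippocampi of 2 mice were pooled for each library, and about 10000 live CD11b+CD45lo cells were sorted by BODIPY, a dye of neutral lipid. BODIPY-low and BODIPY-high cells gave 3 libraries each, and no wild-type or interferon-treated cells were analysed here. The comparison asks how microglia rich in lipid droplets differ from those poor in them.

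Type I interferons are secreted proteins that cells make on sensing foreign or misplaced nucleic acid. They bind a receptor built from the Ifnar1 and Ifnar2 chains, whose kinases Jak1 and Tyk2 phosphorylate signalling factors such as Stat2. These join Irf9 and switch on stimulated genes through a promoter motif called the interferon-stimulated response element. In brain, a state of microglia marked by such genes is known from ageing, infection and neurodegeneration.

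The motif was searched as a GAAA followed 2 bases later by another GAAA, on both strands of the 250 bases upstream of RefSeq gene starts (GRCm38.p6), with overlapping matches each counted. Promoters were matched for 24 of the 32 genes, and 10 of them (41.7%) held the motif. Among all 27025 genes with a promoter it was held by 3.46%. The gamma-activated site, searched as TTCNNNGAA, stood in 5 of the 24 and in 8.13% of all. The 10 genes were Stat2, Ifit1, Ifit3, Isg15, Oas1a, Rsad2, Bst2, Cxcl10, Ifi203 and Trim30a. The stretches below show the motif as it stands before 8 of these genes, whose values follow. Each runs 5′ to 3′ on the strand of its gene, with the motif in capitals, and a motif on the other strand reads as TTTC, 2 bases and TTTC.
Isg15: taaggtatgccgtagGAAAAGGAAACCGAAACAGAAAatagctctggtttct
Oas1a: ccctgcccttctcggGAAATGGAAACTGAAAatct
Bst2: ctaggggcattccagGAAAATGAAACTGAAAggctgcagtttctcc
Cxcl10: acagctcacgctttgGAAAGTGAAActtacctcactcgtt
Ifit1: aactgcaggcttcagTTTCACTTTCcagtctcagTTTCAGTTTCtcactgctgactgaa
Ifit3: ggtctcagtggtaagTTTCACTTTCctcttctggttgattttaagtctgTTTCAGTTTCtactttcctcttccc
Rsad2: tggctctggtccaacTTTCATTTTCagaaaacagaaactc
Trim30a: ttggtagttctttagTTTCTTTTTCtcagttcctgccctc
On the minus strand lie the stretches of Isg15 (chr4:156200860-156200911), Oas1a (chr5:120907526-120907560), Bst2 (chr8:71537572-71537617), Cxcl10 (chr5:92349078-92349117), Rsad2 (chr12:26456548-26456587) and Trim30a (chr7:104465205-104465244). On the plus strand lie those of Ifit1 (chr19:34640770-34640828) and Ifit3 (chr19:34583358-34583431). Isg15 carries 3 overlapping matches and Oas1a and Bst2 carry 2, while Ifit1 and Ifit3 carry 2 apart from each other. A match describes these letters only.

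Reads recovered from the deposited values came to between 24982215 and 34899425 per library. Grn itself had between 416 and 1614 normalised reads in the 6 libraries, and the part of the gene these reads come from was not analysed here. The microglial marker Tmem119 had 168205 to 193108 normalised reads in BODIPY-low libraries and 145419 to 155729 in BODIPY-high. The sum over 9 microglial markers did not overlap either, at 1641057 to 1870453 normalised reads against 1469151 to 1584322. Libraries differed in markers of other cells. Summed over 11 neutrophil markers, normalised reads were 31481 to 82945 across the BODIPY-low libraries and 201 to 2396 across the BODIPY-high ones, and over 8 choroid plexus markers 3681 to 18446 and 148844 to 260680. The 7 monocyte markers summed to 5663 to 11830.0 and to 217 to 596. In sorted bulk cells, fewer cells of a type and less RNA per cell cannot be told apart.

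None of the 32 interferon genes passed the test between BODIPY-high and BODIPY-low microglia. limma with Benjamini-Hochberg adjustment over all tested genes called 0 of 32, beside 13.3% of all tested genes. At an unadjusted p under 0.05 the count was 1 of 32, beside 27.1% of all tested genes. edgeR also called 0, beside 12.8%, and DESeq2 called 1, Slfn2, beside 16.6%. Fold changes compare BODIPY-high with BODIPY-low as a difference of log2(value + 1), and ran from -0.77 for Ifi203 to 0.32 for Bst2. Their median was -0.17, beside -0.01 over all tested genes. They lay below 0 for 27 of the 32 genes, beside 51.9% of all tested genes, and above 0 for Bst2, Parp14, Oasl2, Xaf1 and Dhx58. In the same libraries the 9 microglial markers had a median log2 fold change of -0.19, with 1 of 9, Cx3cr1, called lower (-0.39, limma adjusted p = 0.0399), and the 8 choroid plexus markers had a median of 4.60. The part of either in the values of the interferon genes was not tested. The count below 0 ran from 23 to 28 over the alternative fits, and the members' median from -0.19 to -0.13.

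The 95% interval of the difference stayed within a 2-fold change in either direction for 24 of the 32 genes, and within 1.5-fold for 14. Of all 12821 tested genes, 9031 stayed within 2-fold and 5752 within 1.5-fold. The interval reached a 2-fold change for 8 of the 32 genes, namely Ifit1, Mx1, Rsad2, Zbp1, Ifi203, Ifi27l2a, Ifi44 and Cxcl10. For these 8 a difference of that size lies within the error of 3 libraries a group.

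**Figure D1:**
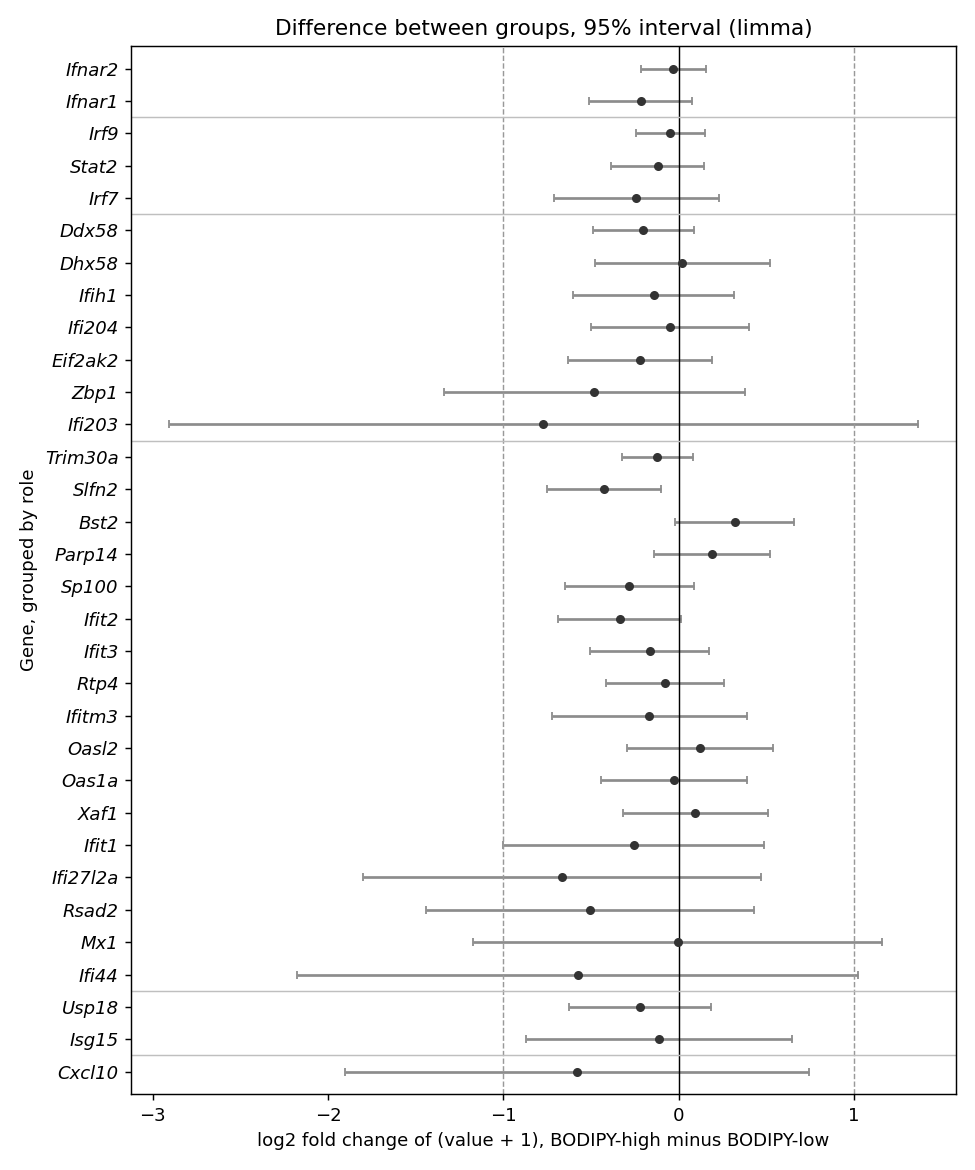
Log2 fold change of each of the 32 genes (points, difference of log2(value + 1), above 0 where BODIPY-high is higher) with its 95% interval from limma (bars), ordered by role and then by mean level. Dashed lines mark a 2-fold change. Every interval but that of Slfn2 includes 0, and those of Ifi203, Ifi44 and Cxcl10 are wide.

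Levels of the genes spanned a wide range. Per kilobase of annotated exon, the mean over 6 libraries was highest for Ifnar2, at 2828 normalised reads, and then for Bst2 (1514), Slfn2 (974), Ifnar1 (880.04) and Ifitm3 (578). At the other end on the same scale stood Mx1 (13.9), Ifi44 (3.06) and Ifi203 (1.52). The receptor chains thus ranked among the 4 highest, and stimulated genes such as Mx1 and Rsad2 (23.8) among the 5 lowest. Without scaling by length, 9 of the 32 had a mean of at least 1000 normalised reads and 5 a mean under 100.

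**Figure D2:**
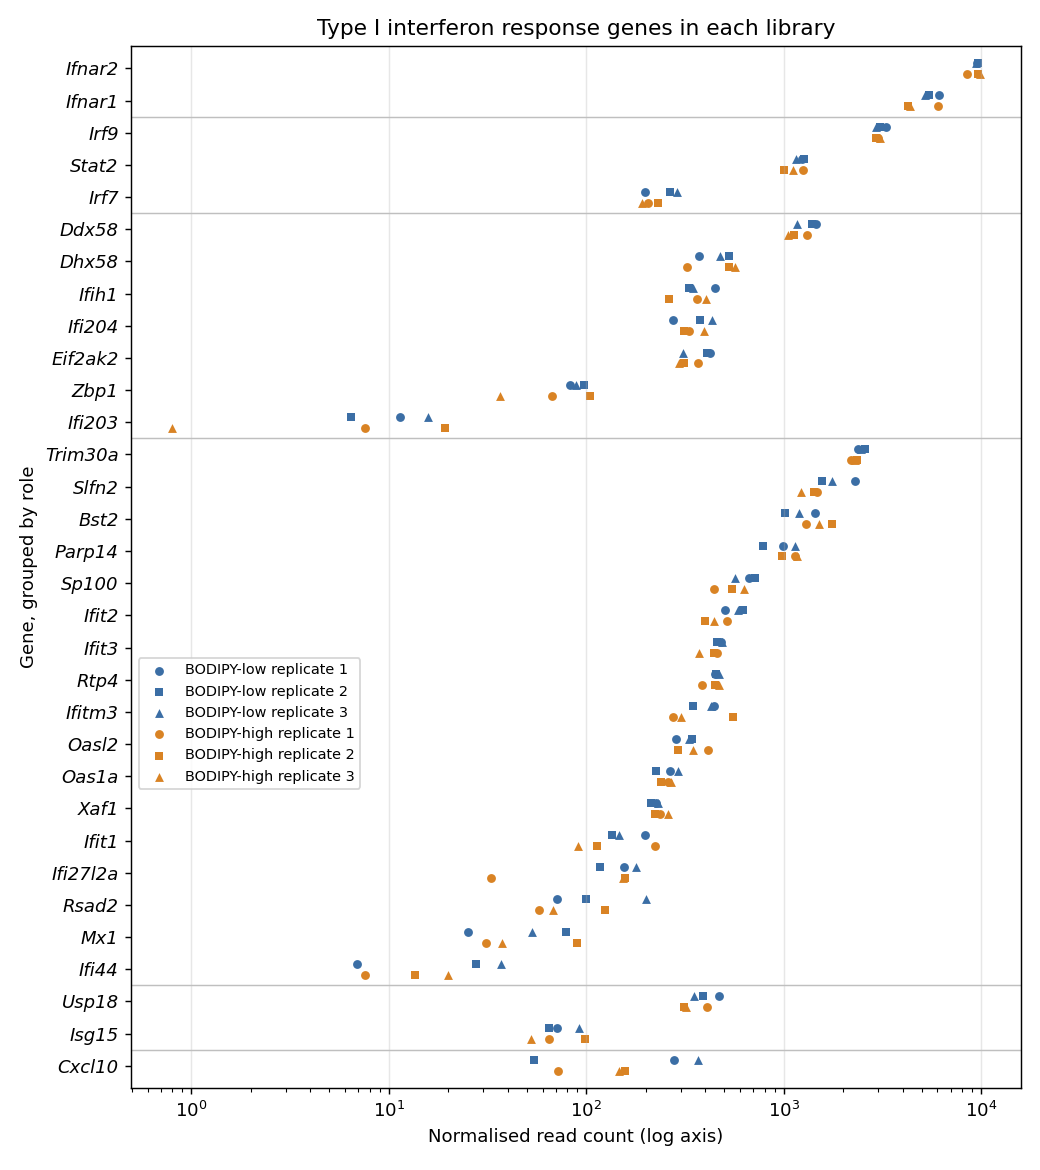
Normalised read counts of the 32 genes in each library on a log axis, in blocks by role (receptor, signalling factors, sensors, effectors, Isg15 and Usp18, Cxcl10). Blue marks are BODIPY-low and orange marks BODIPY-high libraries, and the shape gives the replicate number. The colours overlap in every gene but Trim30a and Slfn2.

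Neither receptor chain passed the test. Ifnar2 (GRCm38 chromosome 16, 91372783 to 91405589), the chain that binds interferon with high affinity, had 9502, 9617 and 9377 normalised reads in BODIPY-low replicates 1, 2 and 3. BODIPY-high replicates 1, 2 and 3 had 8471, 9650.0 and 9869. The BODIPY-low values lie inside the BODIPY-high range, and the log2 fold change was -0.03 (95% interval -0.21 to 0.16, limma adjusted p = 0.870). Ifnar1 (chromosome 16, 91485238 to 91507441), the partner chain, had 6128, 5465 and 5176 normalised reads across the BODIPY-low libraries and 6021, 4237 and 4337 across BODIPY-high replicates 1, 2 and 3. BODIPY-high replicate 1 stood with the BODIPY-low libraries, and the other 2 lay below them. The log2 fold change was -0.22 (interval -0.51 to 0.08, limma adjusted p = 0.335). Without BODIPY-high replicate 1 it was -0.38 and passed the test (limma adjusted p = 0.0337).

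The signalling factors also overlapped between groups. Stat2 (chromosome 10, 128270559 to 128292849), which carries the activation domain of the complex, had 1243, 1262 and 1152 normalised reads across the BODIPY-low libraries and 1257, 1008 and 1113 across BODIPY-high replicates 1, 2 and 3. Its log2 fold change was -0.12 (limma interval -0.38 to 0.15, adjusted p = 0.581). Irf9 (chromosome 14, 55603571 to 55610030), which gives the complex its DNA binding, was among the steadiest of the 32. It had 3282, 3060.2 and 2939 normalised reads across the BODIPY-low libraries and 2985, 2932 and 3063 across the BODIPY-high ones (log2 fold change -0.05, limma interval -0.24 to 0.15). Exons of Irf9 overlap those of Rnf31 on the same strand. Irf7 (chromosome 7, 141262706 to 141266481), itself induced by interferon and needed for strong interferon production, was lower in level than both. Its values were 198, 266 and 288 normalised reads across the BODIPY-low libraries and 206, 231 and 192 across the BODIPY-high ones. BODIPY-low replicate 1 fell inside the BODIPY-high range (log2 fold change -0.24, limma interval -0.71 to 0.23, adjusted p = 0.525). Exons of Irf7 overlap those of Phrf1 on the other strand, and reads of such a pair cannot be told apart without strand.

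The 7 sensors had log2 fold changes from -0.77 to 0.02 (limma adjusted p between 0.360 and 0.964). Of these 7, 0 passed, beside 13.3% of all tested genes. Ddx58, which encodes the RNA sensor RIG-I (chromosome 4, 40203773 to 40239828), was the sensor with the highest mean level per kilobase. It had 1451, 1397 and 1171 normalised reads across the BODIPY-low libraries and 1317, 1124 and 1054 across the BODIPY-high ones, with overlapping groups (log2 fold change -0.20, interval -0.49 to 0.09). Ifih1, which encodes the long RNA sensor MDA5, and Dhx58, their regulator LGP2, had means of 377 and 457 normalised reads across the BODIPY-low libraries and 344 and 473 across the BODIPY-high ones. Eif2ak2, the kinase PKR that halts translation on double-stranded RNA, had 380.4 ± 61.6 and 325 ± 37.4 (SD, n = 3 each).

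The other sensors were Ifi204 and Ifi203, of a family that senses DNA, and Zbp1. Ifi204 had 276, 378 and 433 normalised reads across the BODIPY-low libraries and 332, 313 and 394 across the BODIPY-high ones, and the groups overlapped. Zbp1, a sensor of left-handed nucleic acid that can start cell death, had 82.3, 97.0 and 88.2 across the BODIPY-low libraries and 66.9, 104 and 36.5 across the BODIPY-high ones. BODIPY-high libraries thus held both its highest and its lowest value (log2 fold change -0.48, limma interval -1.34 to 0.38). The value was -0.09 without BODIPY-high replicate 3 and -0.83 without replicate 2. Ifi203 (chromosome 1, 173920407 to 173942672) had the largest fold change of the 32 in size. That value rests on few reads: 11.4, 6.39 and 15.8 normalised reads across the BODIPY-low libraries and 7.54, 19.3 and 0.795 across the BODIPY-high ones, the last being 1 read. Its log2 fold change of -0.77 had an interval from -2.91 to 1.37 and became 0.19 without BODIPY-high replicate 3. Ifi203 shares exons with Mndal and belongs to a family of near-identical copies, so its count is uncertain.

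Among the 17 antiviral effectors 0 passed in limma, beside 13.3% of all tested genes, and their median log2 fold change was -0.16. Slfn2 (chromosome 11, 83065112 to 83070678), a Schlafen protein that keeps T cells quiescent, came nearest. It had 2298, 1555 and 1747 normalised reads across the BODIPY-low libraries and 1479, 1417 and 1227 across BODIPY-high replicates 1, 2 and 3, and all 3 BODIPY-high libraries lay below all 3 BODIPY-low ones. The log2 fold change was -0.43 (SE 0.15, interval -0.75 to -0.10). Over the alternative fits it ran from -0.55 to -0.27, the latter without BODIPY-low replicate 1 (limma adjusted p = 0.228). limma gave an adjusted p of 0.0850 (unadjusted 0.0149), edgeR 0.0805 and DESeq2 0.0353. BODIPY-low replicate 1 held the highest value of Slfn2 and also the largest sum of neutrophil markers, 82945 normalised reads. Neutrophil and monocyte markers were lower in the same libraries as Slfn2, and their part in its values was not tested. Slfn2 was not among the 10 genes with a match to the response element, found among the 24 with a promoter matched.

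Trim30a (chromosome 7, 104409025 to 104465193), a tripartite motif protein that restrains innate signalling, was the other gene whose groups lay apart. It had 2368, 2585 and 2452 normalised reads across the BODIPY-low libraries and 2180.1, 2338 and 2292 across the BODIPY-high ones. The difference was small (log2 fold change -0.12, limma interval -0.32 to 0.08, adjusted p = 0.449). Groups thus did not overlap in 2 of 32 genes, both with BODIPY-high below, beside 31.3% of all tested genes in either direction and 13.4% in that one. The opposite order was seen in 0 of 32, beside 18.0% of all tested genes.

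Bst2, or tetherin (chromosome 8, 71534255 to 71537456), which holds budding virus at the cell surface, had the largest positive difference. It had 1443, 1015 and 1195 normalised reads across the BODIPY-low libraries and 1295, 1748 and 1506 across the BODIPY-high ones. BODIPY-low replicate 1 lay above BODIPY-high replicate 1, so the groups overlapped (log2 fold change 0.32, limma interval -0.02 to 0.66, adjusted p = 0.209). Ifitm3, which blocks virus entry at endosomal membranes (chromosome 7, 141009586 to 141010770), had 441, 345 and 430 normalised reads across the BODIPY-low libraries and 275, 556 and 303 across the BODIPY-high ones. BODIPY-high replicate 2 was the highest of the 6 and BODIPY-high replicate 1 the lowest.

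The Ifit genes encode proteins that bind foreign RNA ends and block its translation. Ifit2 had 503, 619 and 588 normalised reads across the BODIPY-low libraries and 516, 399 and 442 across the BODIPY-high ones, and only BODIPY-high replicate 1 reached into the BODIPY-low range (log2 fold change -0.34, limma interval -0.69 to 0.02, adjusted p = 0.207). Ifit3 varied less, at 480.2, 459 and 485 and at 461, 444 and 371. Ifit1 varied more, at 199, 135 and 146 across the BODIPY-low libraries and 223, 113 and 90.6 across the BODIPY-high ones, where replicate 1 was the highest of all. Ifit3 has a close copy, Ifit3b, so a split of reads between them is uncertain.

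The oligoadenylate synthetase Oas1a and its relative Oasl2, which take part in sensing and degrading viral RNA, had 260.5 ± 32.9 and 320 ± 29.8 normalised reads across the BODIPY-low libraries and 255 ± 14.6 and 351 ± 62.3 across the BODIPY-high ones (SD, n = 3 each). Their log2 fold changes were -0.02 and 0.12. Rtp4, Xaf1, Sp100 and Parp14 had means of 456, 223, 651 and 968 normalised reads across the BODIPY-low libraries and 434, 239, 538 and 1096 across the BODIPY-high ones. Parp14, a mono-ADP-ribosyltransferase, and Xaf1, a proapoptotic factor, had fold changes above 0 (0.19 and 0.10), and Sp100, a protein of nuclear bodies, and Rtp4 below 0 (-0.28 and -0.08). Each interval included 0.

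Other effectors varied more between libraries. Rsad2, or viperin (chromosome 12, 26442746 to 26456452), an enzyme that makes a chain-ending nucleotide, had 70.9, 99.1 and 199.5 normalised reads across the BODIPY-low libraries and 57.5, 125 and 67.5 across the BODIPY-high ones. BODIPY-low replicate 3 stood highest (log2 fold change -0.51, limma interval -1.44 to 0.43), and without it the value was -0.09. Mx1, a GTPase against influenza virus that is defective in many laboratory strains, had 25.2, 78.9 and 52.9 and then 31.1, 89.5 and 37.3. Its group means were nearly equal, 52.3 and 52.6 normalised reads, while single libraries differed 3.13-fold within BODIPY-low. Ifi44 had 6.86, 27.7 and 37.1 across the BODIPY-low libraries and 7.54, 13.6 and 19.9 across the BODIPY-high ones. Ifi27l2a (chromosome 12, 103442167 to 103443680), a small protein induced by interferon, had 154, 117 and 179 across the BODIPY-low libraries and 33.0, 157 and 153 across the BODIPY-high ones. BODIPY-high replicate 1 alone stood low, and without it the log2 fold change of -0.66 became 0.07.

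Isg15, a ubiquitin-like protein attached to others after interferon, and Usp18, the protease that removes it and damps the receptor, showed overlapping groups. Isg15 (chromosome 4, 156199424 to 156200818) had 70.9, 65.0 and 91.9 normalised reads across the BODIPY-low libraries and 65.0, 98.5 and 52.4 across the BODIPY-high ones (log2 fold change -0.11, limma interval -0.87 to 0.65, adjusted p = 0.881). Usp18 (chromosome 6, 121245906 to 121270917) had 469.95, 389.99 and 353 across the BODIPY-low libraries and 408, 314 and 321 across the BODIPY-high ones. BODIPY-high replicate 1 lay above BODIPY-low replicates 2 and 3 (log2 fold change -0.22, interval -0.62 to 0.19, limma adjusted p = 0.499).

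Cxcl10 (chromosome 5, 92346638 to 92348889), a chemokine that draws T cells, was the most variable gene within BODIPY-low libraries. It had 277, 54.3 and 367 normalised reads across the BODIPY-low libraries and 71.6, 156 and 147 across BODIPY-high replicates 1, 2 and 3. BODIPY-low thus held both the highest and the lowest of the 6 values, 6.74-fold apart. The log2 fold change was -0.58 (limma interval -1.90 to 0.74, adjusted p = 0.590). Without BODIPY-low replicate 2 it was -1.42 and passed the test (limma adjusted p = 0.0343). Exons of Cxcl10 overlap those of Art3 on the other strand.

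Spread within a group was set beside the difference between groups. On the log2(value + 1) scale, the difference of group means was smaller than the wider of the 2 within-group ranges in 32 of 32 genes, beside 78.4% of all tested genes. It was smaller than both ranges in 26, beside 52.2% of all tested genes, the exceptions being Ifit2, Ifit3, Ifi27l2a, Zbp1, Trim30a and Slfn2. Leaving out 1 library reversed the fold change or moved it by over 1.5 times in 30 of the 32 genes, all but Ifit2 and Trim30a. This count was not made over all tested genes, and a fold change near 0 meets the rule easily. The highest and lowest library of at least 1 group were over 2-fold apart for 9 genes and stayed within 1.5-fold in both groups for 19. These counts too were not made over all tested genes. Of the 5 genes with a mean under 100 normalised reads, 4 were among those 9. BODIPY-low replicate 3 held the highest value of 9 genes and the lowest of 0, beside 15.7% and 13.4% of all tested genes. BODIPY-high replicate 3 held the lowest value of 9 genes and BODIPY-high replicate 1 of 8, beside 16.3% and 19.9%.

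**Figure D3:**
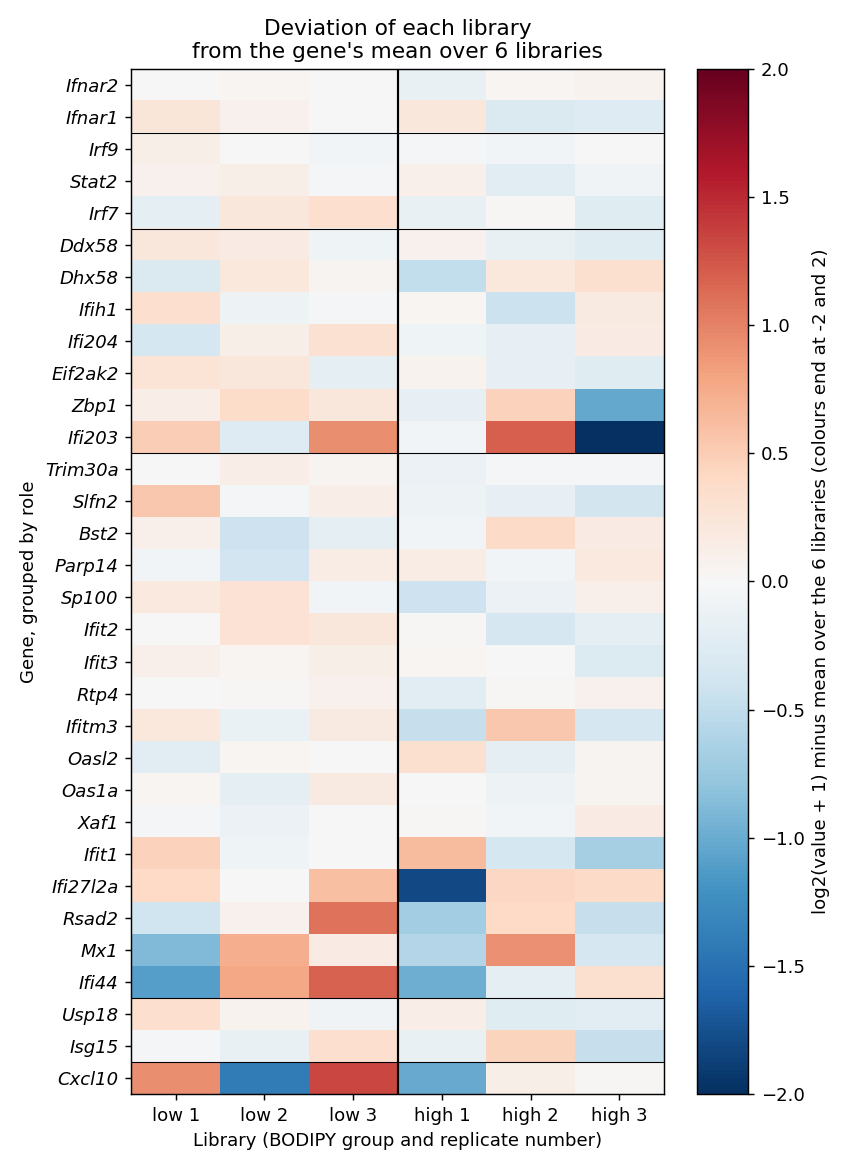
Each cell is the log2(value + 1) of a gene (rows, by role) in a library (columns, 3 BODIPY-low left of the line and 3 BODIPY-high right of it) minus that gene's mean over the 6 libraries. Red is above and blue below the mean, with colours ending at -2 and 2. Strong colours of both signs occur within a group, as for Cxcl10, Ifi44 and Mx1 across the BODIPY-low replicates.

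The interferon genes themselves were barely read. Of 21 type I, II and III interferon ligands listed, 2 had a row in the table, and neither reached the level for testing. Ifnb1, which encodes interferon beta, had 1.14, 0 and 25.1 normalised reads in BODIPY-low replicates 1, 2 and 3 and 0 in each BODIPY-high library. Ifna13 had 4.64 normalised reads in BODIPY-low replicate 3 and 0 in the other libraries. A count of 0 allows up to 3 reads, or 2.38 to 3.40 normalised reads in a BODIPY-high library, for counting error only. BODIPY-low replicate 3, with the most Ifnb1, held the highest value of 9 of the 32 genes, beside 15.7% of all tested genes. Cxcl10, Rsad2 and Ifi44 were among these 9. The rest peaked in other libraries, such as Isg15, Mx1 and Bst2 in BODIPY-high replicate 2. A link of these values with Ifnb1 was not tested.

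Together the 32 genes took a share of 0.121% ± 0.00172 of a BODIPY-low library's reads and 0.112% ± 0.00146 of a BODIPY-high library's (SD, n = 3 each), a description with no test. Between 52.8% and 55.1% of these reads came from Ifnar2, Ifnar1 and Irf9.

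Beyond the 32 genes, a list of other interferon pathway genes was examined. Of 142 listed, 109 were tested, and limma called 2 higher and 6 lower across the BODIPY-high ones, beside 9.79% and 3.52% of all tested genes. The median log2 fold change was -0.13. At an unadjusted p under 0.05 the count was 21 of 109 (19.3%, beside 27.1% of all tested genes). edgeR called 7 (6.42%, beside 12.8%) and DESeq2 called 11 (10.1%, beside 16.6%). Of the 8 called by limma, 7 are described here. Of the partners of the receptor, the kinases Jak1 and Tyk2 had log2 fold changes of 0.18 and 0.03, with limma adjusted p of 0.234 and 0.937. Irf1, Irf2, Irf3, Irf4, Irf5 and Irf8 lay between -0.18 and -0.07, and none of these 6 passed.

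**Figure D4:**
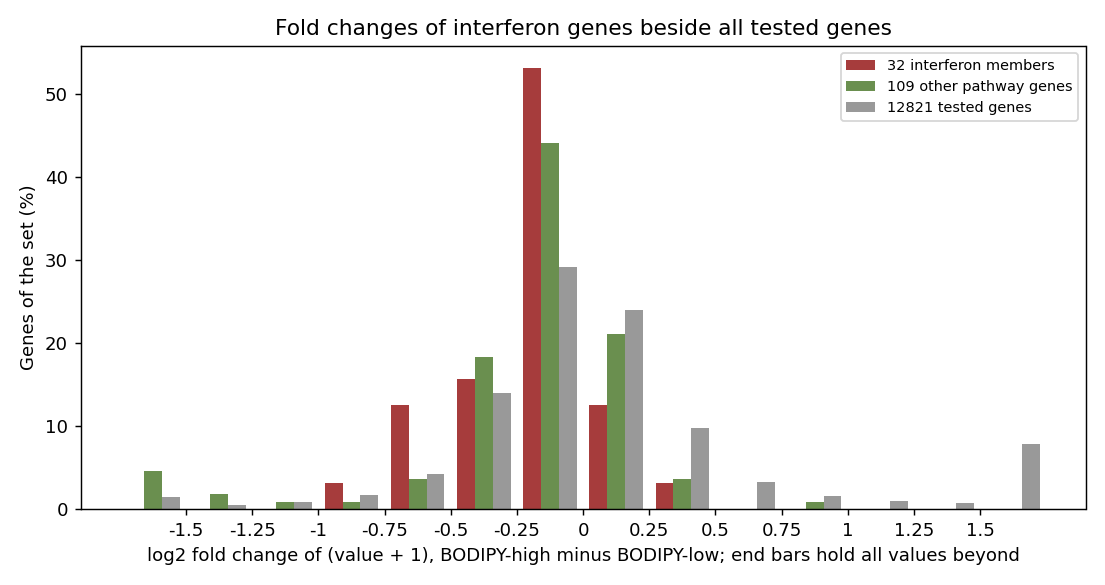
Share of genes (percent of each set) by log2 fold change, BODIPY-high minus BODIPY-low, in bins of 0.25, for the 32 interferon genes (red), 109 other pathway genes (green) and 12821 tested genes (grey). The end bars hold all values beyond -1.5 and 1.5. Of the 32 genes 27 (84.4%) lie within 0.5 of 0, beside 76.9% of all tested genes. None of the 32 lies at or above 1.5 or below -1.5, beside 7.83% and 1.45% of all tested genes.

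Called lower were 1 gene each among 9 receptors, kinases and transducers, 10 genes of nucleic acid sensing and 10 that restrain the response. Over all tested genes 3.52% were called lower. Ifngr1, a chain of the receptor for interferon gamma, fell from a mean of 53646 ± 2064 normalised reads to 43554 ± 332 (SD, n = 3 each, log2 fold change -0.30, SE 0.08, limma adjusted p = 0.0228). Tmem173, which encodes STING, the adaptor that passes on cytosolic DNA sensing, fell from 26082 ± 971 to 20478 ± 796 (-0.35, SE 0.08, limma adjusted p = 0.0121). Socs3, an inhibitor of cytokine receptor signalling, fell from 2353 ± 115 to 1619 ± 106 (-0.54, SE 0.10, limma adjusted p = 0.00502). In each of these genes all 3 BODIPY-high libraries lay below all 3 BODIPY-low ones. The 9 microglial markers had a median log2 fold change of -0.19 in the same libraries, with 1 called lower. Their part in the falls of Ifngr1, Tmem173 and Socs3 was not tested. The call of Socs3 held in every alternative fit. That of Ifngr1 was lost on leaving out replicate 2 or 3 of BODIPY-low, or replicate 2 or 3 of BODIPY-high (limma adjusted p = 0.0935, 0.0503, 0.0514 and 0.0890). That of Tmem173 was lost without replicate 3 of BODIPY-low (0.0515) or BODIPY-high (0.0596).

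Of the 10 listed genes of nucleic acid sensing and its kinases, 1 passed, Tmem173, beside 13.3% of all tested genes. In 6 of the 10 all BODIPY-high libraries lay below all BODIPY-low ones, beside 13.4% of all tested genes. Besides Tmem173 these were Mb21d1, which encodes the DNA sensor cGAS, Tbk1, Ticam1, Aim2 and Zc3hav1. Their log2 fold changes lay between -0.42 and -0.18, with limma adjusted p between 0.106 and 0.243. This group was added after its values were seen, so its count beside the share of all tested genes is a description only. The same order, all BODIPY-high below all BODIPY-low, was seen in 0 of the 7 sensors described earlier. It was seen in 23 of the 109 other pathway genes tested, these 10 included, and in 12 of the 73 other stimulated genes. The part of the lower microglial markers in the values of the 10 genes was not tested. Mb21d1 had 739, 802 and 755 normalised reads across the BODIPY-low libraries and 583, 624 and 663 across the BODIPY-high ones.

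Among 73 other stimulated genes tested, 2 rose and 2 fell, beside 9.79% and 3.52% of all tested genes. Samd9l, an antiviral protein that restricts translation, fell from 248, 335 and 325 normalised reads in BODIPY-low to 28.3, 86.1 and 43.7 across BODIPY-high replicates 1, 2 and 3 (log2 fold change -2.63, SE 0.37, limma adjusted p = 0.00105). Ifitm6, a relative of Ifitm3, fell from 258, 69.3 and 84.4 to 3.77, 4.53 and 0 (-5.28, SE 0.79, limma adjusted p = 0.00145). Neutrophil markers fell with them, 10 of 11 called lower and their sum at most 2396 normalised reads across the BODIPY-high ones, and their part in these values was not tested.

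Lgals9, which encodes galectin-9, rose from 11244, 9968 and 10860.5 normalised reads in BODIPY-low to 14904, 14067 and 12716 across the BODIPY-high ones (log2 fold change 0.38, SE 0.09, limma adjusted p = 0.0169). Leaving out replicate 2 or 3 of BODIPY-low lost this call (0.0818 and 0.0577). Ifi27, a mitochondrial protein related to Ifi27l2a, rose from 1227, 676 and 916 to 1616, 1588 and 2053 (0.93, SE 0.20, limma adjusted p = 0.00991), and its call was lost without BODIPY-high replicate 3 (0.0552). All 8 choroid plexus markers were called higher alongside, and their part in both rises was not tested.

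**Figure D5:**
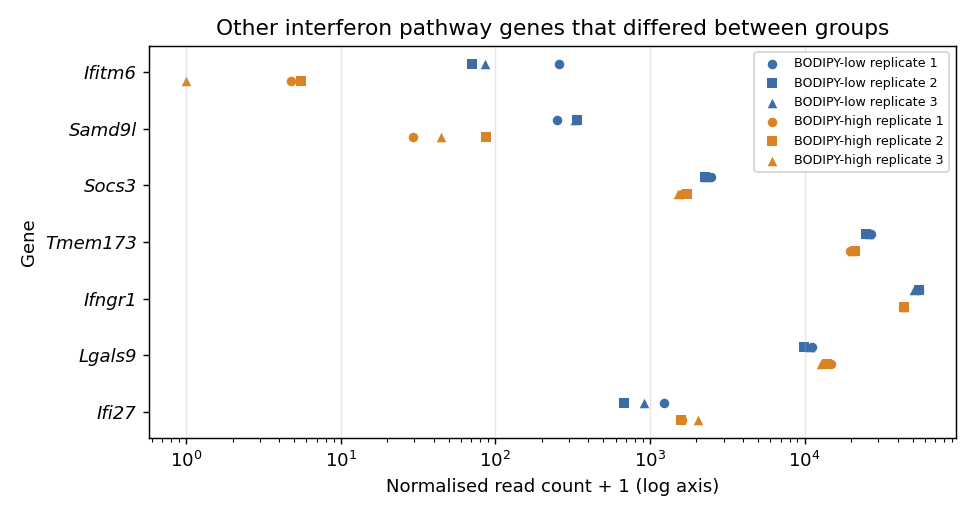
Normalised read counts plus 1 on a log axis of 7 of the 8 other pathway genes that passed the test, in each library, with BODIPY-low in blue and BODIPY-high in orange. The colours do not overlap in any of the 7, and they lie far apart for Ifitm6 and Samd9l but close for Ifngr1, Tmem173 and Lgals9.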

How the data were processed

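The table the authors deposited holds a signal, namely gene counts scaled by a size factor for each library. Whole reads were recovered from them: 100% of values came out whole at a tolerance of 0.01 read. Per the submitters' processing notes, FastQC 0.11.4, STAR 2.5.3a and DESeq2 were used, and mm9 and mm10 are listed. Per the series' design text, reads were mapped to mm10. Neither annotation nor strand setting is given in the sources used here.

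Differences were tested with limma 3.58.1 in R 4.3.3, with a trended variance and two-sided p-values, on log2(value + 1) for 12821 genes with a mean of at least 10. Calls required an adjusted p (Benjamini-Hochberg) under 0.05. The pseudocount of 1 shrinks changes of low genes. The fit was tested on simulated data in which changed genes differed by at least 2-fold, so smaller differences were not covered. Alternatives were edgeR 4.0.16 and DESeq2 1.42.0 on recovered reads, TMM scaling, pseudocounts of 0.5 and 10, no filter, the replicate number as a block, and leaving out each library. Each library is a pool of 2 mice, and p-values reflect the spread among these 6 libraries alone, which may be partly technical.

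Coordinates, exon lengths and overlaps come from GENCODE M21 (GRCm38, the assembly of mm10), which holds all 32 genes and 15532 of the 16179 symbols. Reads were amplified without molecular identifiers, so a floor covers counting error only. The 32 genes and the other lists were chosen with earlier results of these data known. Values per library are given for the receptor, the signalling factors, the 5 largest fold changes, the 5 highest levels per kilobase and further members by role. From the other lists, the called genes, Jak1, Tyk2 and the Irf genes are named, except for some that are not reported here, and the genes of nucleic acid sensing and the interferons were added after their values were seen.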

Additional observations from a re-analysis of the deposited data

How the results depend on the processing

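No member was called higher in any of the alternatives run. The count of members called lower was 1 with DESeq2 and 1 with the replicate block (Slfn2 in each, adjusted p = 0.0306 with the block), and 0 to 1 with 1 library left out (Cxcl10 or Ifnar1), against 0 as reported. With 1 library left out, genes called among all tested ran from 908 to 1648, against 1706, other pathway genes called higher from 1 to 2, and lower from 3 to 8. With the replicate block, 2211 genes were called. Same-numbered libraries of the 2 groups deviated together with correlations of 0.11, 0.14 and 0.07 over genes for numbers 1, 2 and 3, and each library correlated best with its own number, a hint from the data only, so the libraries were not treated as pairs.

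Of the 32 members, 13 changed sign in at least 1 alternative and 19 in none, and no value that changed sign had passed the test. Mx1 was 0.0016 with DESeq2. With 1 library left out, the log2 fold change ran from -0.0711 to 0.0391 for Ifnar2, -0.63 to 0.0124 for Ifit1, -0.48 to 0.0259 for Ifitm3, -0.36 to 0.0911 for Isg15, -0.0055 to 0.25 for Oasl2, -0.12 to 0.06 for Oas1a, -0.46 to 0.36 for Mx1, -1.56 to 0.19 for Ifi203, -0.23 to 0.0929 for Ifi204, -1.04 to 0.0698 for Ifi27l2a, -0.14 to 0.01 for Rtp4, -0.27 to 0.0404 for Ifih1, -0.13 to 0.27 for Dhx58, -0.0904 to 0.23 for Tyk2 and -0.24 to 0.14 for Irf3. The cause of these changes was not tested.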
